A study of Homo sapiens with 9 samples.

Results

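The E2F, B-MYB and FOXM1 genes are transcription factors that time the cell cycle, and their RNA was followed across 3 groups of FaDu cultures. FaDu is an established line of squamous carcinoma of the hypopharynx, and its RNA was measured by bulk sequencing in 9 libraries. The genes were taken by symbol from the deposited table and numbered 10 of 58735. They are E2F1, E2F2, E2F3, E2F4, E2F5, E2F7, E2F8, TFDP1, MYBL2 (which encodes B-MYB) and FOXM1. All 10 were found in the table, and all 10 passed the filter on low counts, which 16812 genes passed. The set was selected on the levels of these genes across the 3 groups, seen in an earlier reading of the same libraries, so the values of the 10 genes are a description and carry no test of their own.

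The KD_OE libraries are labelled as FaDu cells in which AMIGO2 was knocked down and CAPN2 was overexpressed (n = 3). The KD_NC libraries carry the label of the AMIGO2 knockdown without CAPN2 overexpression (n = 3). The NC_NC libraries are labelled as normal controls of the same line (n = 3). AMIGO2 encodes a leucine-rich-repeat protein of the cell surface, and CAPN2 the large subunit of the protease calpain-2. Within a group the libraries are named as biological replicates. The labels do not say how knockdown and overexpression were made or whether any group is a single clone. The p-values measure the spread between these cultures of 1 cell line, with an estimate for each gene that the 3 groups share.

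The 2 targeted genes were examined first. Levels are given as CPM, counts scaled to a common library total with TMM factors. AMIGO2 stood at 42.8, 35.3 and 38.8 CPM in the KD_OE libraries, at 24.5, 31.3 and 27.3 CPM in the KD_NC libraries and at 29.5, 26.1 and 27.2 CPM in the NC_NC libraries. The KD_NC libraries overlapped the controls, with 1 of the 3 below all of them, and the KD_OE libraries all lay above them. CAPN2 averaged 499 ± 1.29 CPM in KD_OE, 418 ± 20.3 CPM in KD_NC and 462 ± 13.9 CPM in NC_NC (SD, n = 3 each). The log2 fold change of CAPN2 was 0.26 in KD_OE against KD_NC and only 0.11 in KD_OE against NC_NC. Every difference given here is a difference between libraries named by their labels. AMIGO2 goes against the label of the knockdown, and CAPN2 bears out the label of the overexpression only by a small margin. Totals ran from 15158607 to 19737562 counts per library, and 3 counts corresponded to 0.149 to 0.203 CPM, a limit that covers counting error only. The KD_NC libraries were the least alike, with a mean chi-square per gene between libraries of 20.9 to 21.5, against 3.01 to 7.52 within KD_OE and 2.69 to 5.04 within NC_NC. The shared estimate of the spread behind the SE and p-values does not reflect this difference between groups. Mitochondrial ribosomal RNA took 1.02% to 1.05% of counts in KD_OE, 0.877% to 1.08% in KD_NC and 0.537% to 0.583% in NC_NC. The summed level of 11 squamous markers (all 11 tested) was 5515 to 6114 CPM in KD_OE, 4966 to 6079 CPM in KD_NC and 9277 to 9756 CPM in NC_NC. Much of that difference was KRT5, a basal keratin, at 1616 ± 121 CPM in KD_OE, 1207 ± 180 CPM in KD_NC and 4437 ± 133 CPM in NC_NC. In KD_NC against NC_NC 8 of the 11 fell and 1, CDH1, rose, beside 18.5% of all genes called lower and 16.0% called higher. In KD_OE against KD_NC 4 of the 11 fell and 5 rose, beside 25.6% of all genes called lower and 23.7% called higher. Of 6 fibroblast markers 1 was tested and LUM had no count, of 5 endothelial markers 2 were tested and KDR had no count, and of 5 blood markers none was tested. Endothelial markers summed to 16.2 to 16.5 CPM in KD_OE, 43.3 to 49.5 CPM in KD_NC and 17.6 to 22.5 CPM in NC_NC. CDH5 set this sum, at 13.7 ± 0.482 CPM in KD_OE, 43.2 ± 2.93 CPM in KD_NC and 14.8 ± 2.40 CPM in NC_NC, while VWF had 2.61 ± 0.295, 2.44 ± 0.354 and 5.67 ± 0.564 CPM in the same groups. The part of these library differences in the results that follow was not tested.

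E2F proteins bind DNA with a DP partner, most often DP1, the product of TFDP1. E2F1, E2F2 and E2F3 are known as activators of genes for DNA replication, which the retinoblastoma protein holds in check until cyclin-dependent kinases phosphorylate it. E2F4 and E2F5 act mostly as repressors together with the pocket proteins RBL1 and RBL2, and E2F7 and E2F8 repress without a DP partner. B-MYB joins the MuvB complex in S phase, FOXM1 joins it later, and together they switch on the genes of mitosis. When cells leave the cycle, MuvB instead combines with E2F4, DP1 and a pocket protein in the repressive DREAM complex. E2F1, E2F2, MYBL2 and others of these genes are themselves targets of E2F proteins, and many carcinomas carry them at high levels.

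The start regions of 4 of the genes are shown because E2F1, E2F2 and MYBL2 differed most in KD_OE against KD_NC and E2F4 little. Each window runs from 250 bases before to 50 bases after a transcription start in RefSeq (GRCh38.p14), 5′ to 3′ on the strand of the gene. Capitals mark the letters of the E2F forms and of CCAAT, on either strand. E2F1 lies at chr20:33686336-33686635 (minus strand), E2F2 at chr1:23531184-23531483 (minus strand), MYBL2 at chr20:43666864-43667163 (plus strand) and E2F4 at chr16:67191905-67192204 (plus strand).
E2F1: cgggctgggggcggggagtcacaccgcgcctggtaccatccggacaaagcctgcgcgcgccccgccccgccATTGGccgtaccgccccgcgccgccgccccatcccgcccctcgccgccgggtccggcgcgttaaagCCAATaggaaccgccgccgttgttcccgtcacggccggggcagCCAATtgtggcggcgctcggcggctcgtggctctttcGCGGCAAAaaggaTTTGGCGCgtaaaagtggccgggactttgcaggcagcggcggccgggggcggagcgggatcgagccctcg
E2F2: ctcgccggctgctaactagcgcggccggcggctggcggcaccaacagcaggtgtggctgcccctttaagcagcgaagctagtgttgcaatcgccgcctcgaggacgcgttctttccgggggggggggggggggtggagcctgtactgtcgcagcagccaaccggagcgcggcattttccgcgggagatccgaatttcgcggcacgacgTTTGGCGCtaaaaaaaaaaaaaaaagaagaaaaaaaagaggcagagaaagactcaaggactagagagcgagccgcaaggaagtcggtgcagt
MYBL2: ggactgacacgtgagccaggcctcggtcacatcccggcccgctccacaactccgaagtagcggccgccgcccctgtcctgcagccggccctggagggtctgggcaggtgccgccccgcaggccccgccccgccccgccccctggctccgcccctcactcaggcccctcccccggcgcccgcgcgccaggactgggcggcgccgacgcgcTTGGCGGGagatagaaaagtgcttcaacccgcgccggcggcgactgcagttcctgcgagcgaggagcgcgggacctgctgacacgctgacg
E2F4: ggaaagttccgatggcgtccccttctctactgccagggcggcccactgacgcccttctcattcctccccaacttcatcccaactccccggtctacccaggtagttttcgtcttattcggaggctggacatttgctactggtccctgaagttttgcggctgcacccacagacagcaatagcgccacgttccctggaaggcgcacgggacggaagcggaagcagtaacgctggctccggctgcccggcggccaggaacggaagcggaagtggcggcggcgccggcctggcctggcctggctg

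The E2F forms searched were TTTCCCGC, TTTGGCGC, TTTCGCGC and TTTGCCGC, called E2F site here, and TTCCCGCC, TTGGCGGG and TTGGCGCC, called E2F core, all on both strands. Forms of the 2 groups can overlap. The E2F1 window held an E2F site 33 bases and another 20 bases before the start, and CCAAT boxes 179, 113 and 70 bases before it. The E2F2 window held an E2F site 42 bases before the start, and the MYBL2 window an E2F core 41 bases before it. The E2F4 window held none of the letters searched. Windows were found for 7 of the 10 genes, with 2 for E2F3, and any E2F form was in 5 of these 8 windows (62.5%), against 7.27% of all 35116 windows. The other 2 matches were an E2F site 120 bases before the TFDP1 start and, in 1 of the E2F3 windows, overlapping forms 54 and 53 bases before the start. E2F7 had none of the E2F forms and held CCAAT at 4 places. In KD_OE against KD_NC the log2 fold change was -0.53 for TFDP1 and -0.43 for E2F3, which held E2F forms, and -0.13 for E2F7. A relation between these letters and the fold changes was not tested. E2F5, E2F8 and FOXM1 had no window. A match describes letters and is not a binding site, and no match says only that these letters are not in the window.

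Across the 3 groups the levels of 9 of the 10 genes were lowest in KD_OE on average and highest in NC_NC, and E2F5 was the exception. FOXM1 had most of its difference between KD_NC and NC_NC. For TFDP1 the log2 fold changes were closer, at -0.69 in KD_NC against NC_NC and -0.53 in KD_OE against KD_NC. E2F1, E2F2, E2F8 and MYBL2 had the larger log2 fold change in KD_OE against KD_NC. E2F4 and E2F7 differed by at most 1.29-fold and 1.32-fold between any pair of groups. In bulk RNA, fewer cycling cells and less of these RNAs per cell cannot be told apart.

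**Figure D1:**
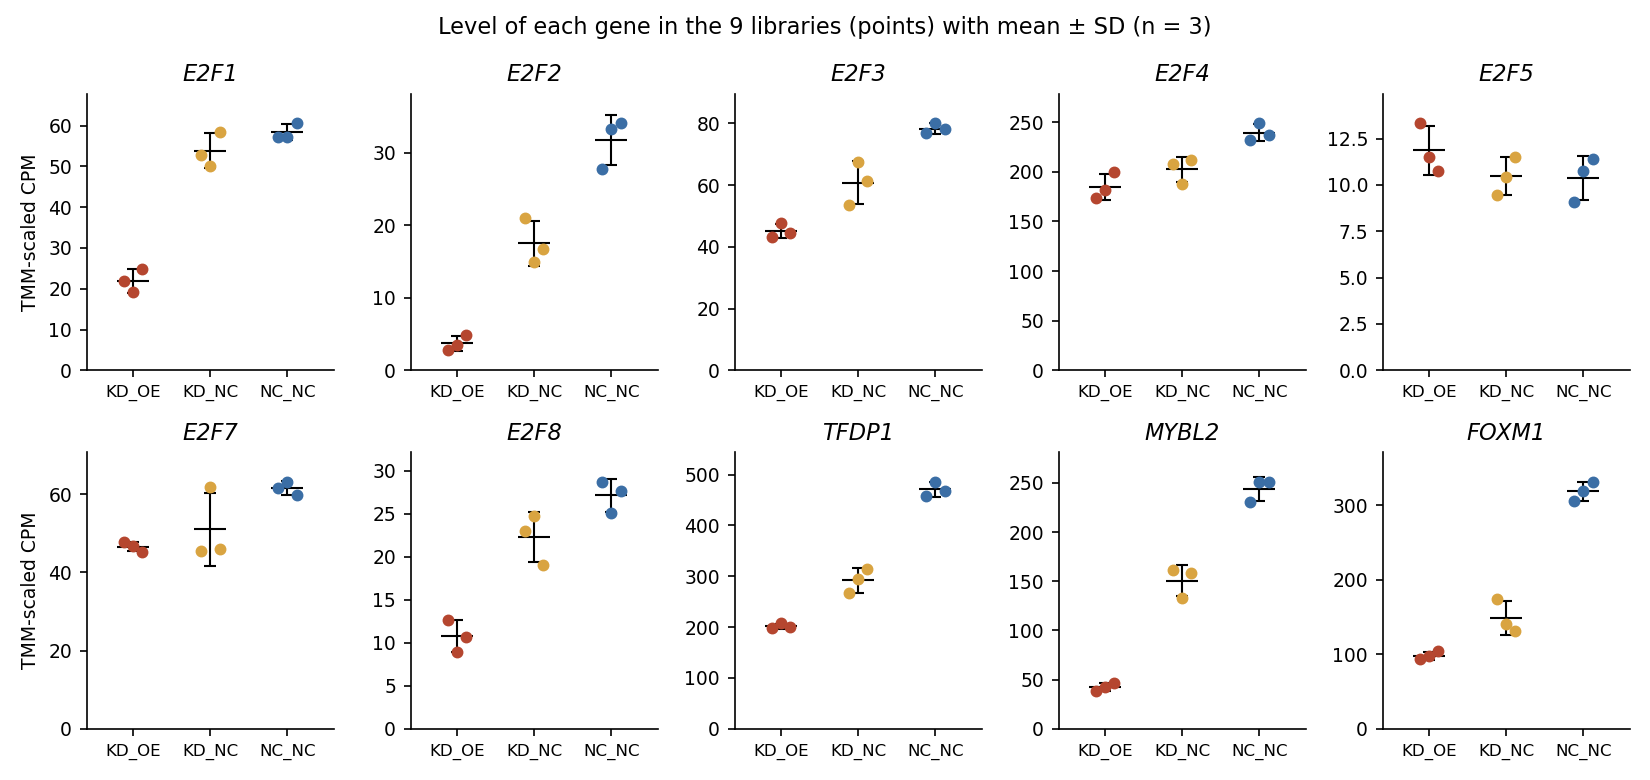
Level of each of the 10 genes in TMM-scaled CPM (vertical axes, from 0) in the 9 libraries, with points for libraries and bars for the group mean ± SD (n = 3). E2F2 and MYBL2 step down over the groups, E2F1 is low in KD_OE alone, FOXM1 and TFDP1 are already lower in KD_NC than in NC_NC, and the E2F5 groups overlap.

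Among the activators, E2F1 (ENSG00000101412, GRCh38 chromosome 20, 33675683 to 33686404, minus strand) differed in KD_OE. It stood at 21.8, 19.1 and 24.9 CPM in KD_OE, at 52.9, 50.1 and 58.5 CPM in KD_NC and at 57.2, 57.3 and 60.6 CPM in NC_NC. All KD_OE libraries lay under all others, while the KD_NC and NC_NC libraries overlapped. The log2 fold change was -1.29 ± 0.110 (SE) in KD_OE against KD_NC and -0.12 ± 0.104 in KD_NC against NC_NC. E2F2 (ENSG00000007968, chromosome 1, 23506430 to 23531220, minus strand) had the largest fold of the 10. It stood at 2.84, 3.48 and 4.89 CPM in KD_OE, at 21.0, 14.9 and 16.7 CPM in KD_NC and at 27.8, 33.3 and 34.1 CPM in NC_NC. The 3 groups were fully apart. E2F2 was 4.67-fold lower in KD_OE than in KD_NC (log2 -2.22 ± 0.181), 1.81-fold lower in KD_NC than in NC_NC (log2 -0.86 ± 0.152) and 8.48-fold lower in KD_OE than in NC_NC. Its KD_OE values rest on 46, 59 and 80 counts. E2F3 (ENSG00000112242, chromosome 6, 20401906 to 20493715, plus strand) had smaller and nearly equal differences. It averaged 45.1 ± 2.36 CPM in KD_OE, 60.8 ± 6.93 CPM in KD_NC and 78.3 ± 1.64 CPM in NC_NC (SD, n = 3 each), with no overlap between groups. Its log2 fold changes were -0.43 ± 0.099 in KD_OE against KD_NC and -0.36 ± 0.097 in KD_NC against NC_NC.

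TFDP1 (ENSG00000198176, chromosome 13, 113584721 to 113641470, plus strand), the DP partner, stood at 198, 207 and 201 CPM in KD_OE, at 267, 295 and 314 CPM in KD_NC and at 458, 486 and 468 CPM in NC_NC. The 3 groups were apart, and the gap between KD_NC and NC_NC was the wider one. Its log2 fold change was -0.53 ± 0.084 in KD_OE against KD_NC and -0.69 ± 0.084 in KD_NC against NC_NC.

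Of the repressor E2Fs that work with pocket proteins, E2F4 (ENSG00000205250, chromosome 16, 67192169 to 67198918, plus strand) stood at 174, 182 and 199 CPM in KD_OE, at 208, 188 and 211 CPM in KD_NC and at 232, 249 and 237 CPM in NC_NC. The KD_OE and KD_NC libraries overlapped, and all of both lay under NC_NC. The log2 fold change was -0.13 ± 0.086 in KD_OE against KD_NC and -0.24 ± 0.086 in KD_NC against NC_NC. In KD_NC against NC_NC its place against the threshold used for all genes was the least steady of the 10. E2F4 left this threshold under 12 of 16 alternatives. Among these were the omission of KD_NC replicate 2, of KD_OE replicate 1 or 2 and of each NC_NC library. Its log2 value in that comparison came to -0.03 after a correction for GC content and length. E2F5 (ENSG00000133740, chromosome 8, 85177225 to 85217158, plus strand) stood at 13.3, 11.5 and 10.8 CPM in KD_OE, at 9.44, 10.5 and 11.5 CPM in KD_NC and at 9.06, 10.7 and 11.4 CPM in NC_NC. The groups overlapped in every comparison, and the log2 fold change was 0.18 ± 0.142 in KD_OE against KD_NC. E2F5 shares 969 exon bases with C8orf59 on the other strand, a gene with 2542 counts in the 9 libraries together against 1656 for E2F5. The library kit does not mark strand, so reads of the shared bases cannot be told apart.

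The atypical repressors parted. E2F7 (ENSG00000165891, chromosome 12, 77021247 to 77065580, minus strand) stood at 47.7, 46.8 and 45.3 CPM in KD_OE, at 45.4, 61.9 and 45.9 CPM in KD_NC and at 61.7, 63.2 and 59.8 CPM in NC_NC. The second KD_NC library was at the NC_NC level and the other two at the KD_OE level. The log2 fold change in KD_NC against NC_NC was -0.27 ± 0.111, and -0.40 without that library. E2F8 (ENSG00000129173, chromosome 11, 19224063 to 19241620, minus strand) stood at 12.7, 8.98 and 10.7 CPM in KD_OE, at 23.1, 24.7 and 19.1 CPM in KD_NC and at 28.7, 25.1 and 27.7 CPM in NC_NC. All KD_OE libraries lay under all others, and KD_NC lay under NC_NC by a narrow margin. The log2 fold change was -1.05 ± 0.139 in KD_OE against KD_NC and -0.28 ± 0.131 in KD_NC against NC_NC.

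The factors of the MuvB branch were lower in KD_OE than in KD_NC and lower in KD_NC than in NC_NC, in unequal parts. MYBL2 (ENSG00000101057, chromosome 20, 43667019 to 43716496, plus strand) stood at 38.6, 43.0 and 47.0 CPM in KD_OE, at 161, 133 and 158 CPM in KD_NC and at 230, 251 and 251 CPM in NC_NC. The 3 groups were apart. MYBL2 was 3.52-fold lower in KD_OE than in KD_NC (log2 -1.81 ± 0.101) and 1.62-fold lower in KD_NC than in NC_NC (log2 -0.70 ± 0.096). FOXM1 (ENSG00000111206, chromosome 12, 2857681 to 2877155, minus strand) stood at 93.3, 97.5 and 104 CPM in KD_OE, at 174, 140 and 132 CPM in KD_NC and at 306, 319 and 332 CPM in NC_NC. These groups were apart as well, with the wider gap between KD_NC and NC_NC. FOXM1 was 1.51-fold lower in KD_OE than in KD_NC (log2 -0.60 ± 0.10) and 2.14-fold lower in KD_NC than in NC_NC (log2 -1.10 ± 0.099). FOXM1 shares 781 exon bases with ITFG2 on the other strand, which had 4000 counts in all libraries against 28252 for FOXM1.

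Against the threshold used for all genes (edgeR's quasi-likelihood test, adjusted p under 0.05), 7 of the 10 genes were lower and 0 higher in KD_OE against KD_NC, where 25.6% of all 16812 genes were called lower. In KD_NC against NC_NC 6 were lower and 0 higher, beside 18.5% of all genes called lower. In KD_OE against NC_NC 9 were lower and 0 higher, beside 28.4% of all genes called lower and 27.9% called higher. E2F4 was among these 9 and left the threshold after the correction for GC content and length, where its log2 value was -0.10 in place of -0.37. The groups did not overlap, with the first lower, for 7, 7 and 9 of the 10 genes in these comparisons, and for 26.9%, 24.1% and 33.6% of all genes. The median log2 fold change of the 10 was -0.57, -0.32 and -1.28, against 0.01, -0.01 and 0.02 for all genes. Since the genes were chosen with these results in view, nothing is read from these counts. The comparisons share libraries and are not independent of each other.

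**Figure D2:**
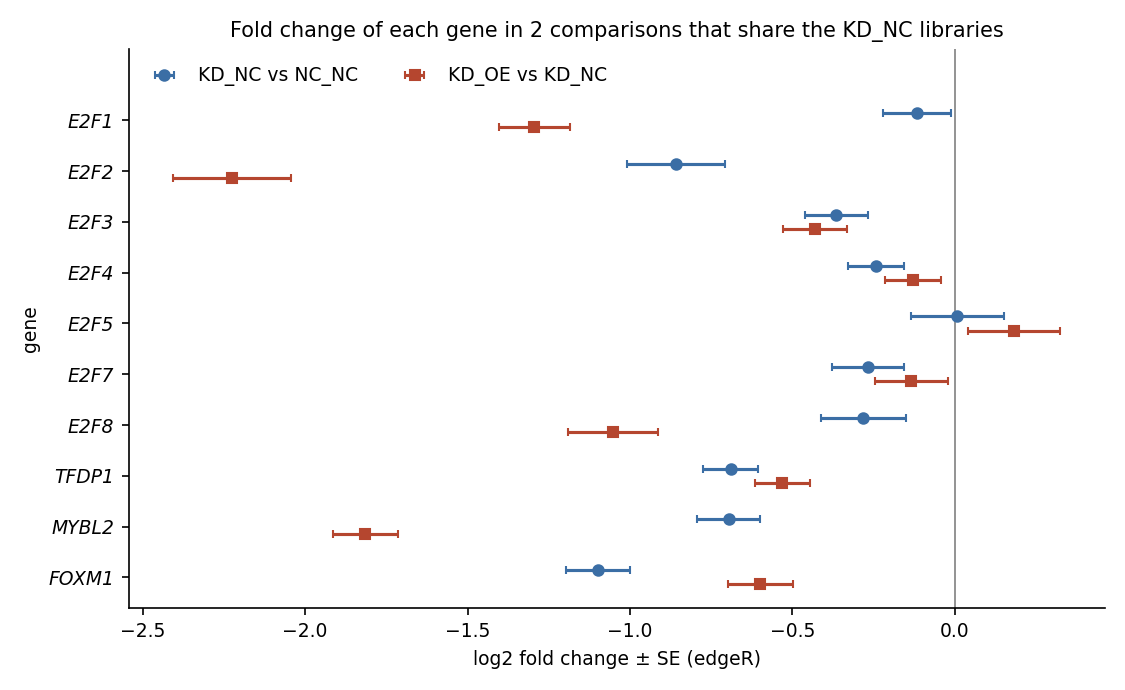
Log2 fold change (horizontal axis) of each gene in KD_OE against KD_NC (squares) and in KD_NC against NC_NC (circles), with bars for the SE from edgeR. The squares lie far left of the circles for E2F1, E2F2, E2F8 and MYBL2, the order is the other way for FOXM1, and the 2 marks lie close together for E2F3 and TFDP1. Both comparisons use the KD_NC libraries.

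The difference of KD_OE from KD_NC and that of KD_NC from NC_NC are called steps here, and their sizes were compared by a contrast that was added after the data were seen, the log2 fold change of KD_OE over KD_NC minus that of KD_NC over NC_NC, in the same fit. A negative value means a stronger decrease, or a weaker increase, in the step to KD_OE. It was -1.37 ± 0.280 (SE) for E2F2, -1.18 ± 0.181 for E2F1, -1.12 ± 0.165 for MYBL2 and -0.77 ± 0.229 for E2F8. It was 0.50 ± 0.173 for FOXM1. For the other 5 genes it lay between -0.07 and 0.18. These values describe genes selected on their levels and are given without a test. The value of FOXM1 rested on single KD_NC libraries, at 0.74 without KD_NC replicate 1 and 0.33 without KD_NC replicate 3.

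Levels of different genes were set beside each other only per length, as CPM per kb of the exon length deposited with the table. Which transcripts of a gene were expressed was not examined, so orders and shares between genes rest on this length. TFDP1 had the highest level of the 10 genes in NC_NC, at 126 ± 3.77 CPM per kb (SD, n = 3), followed by MYBL2 at 88.0 ± 4.36. E2F4 at 66.8 ± 2.38 and FOXM1 at 65.1 ± 2.65 CPM per kb did not differ beyond their spread there. In KD_NC the order was TFDP1 at 78.0 ± 6.41, E2F4 at 56.5 ± 3.57, MYBL2 at 54.3 ± 5.66 and FOXM1 at 30.4 ± 4.56 CPM per kb, where E2F4 and MYBL2 did not differ beyond their spread. In KD_OE, TFDP1 at 54.0 ± 1.3 and E2F4 at 51.6 ± 3.68 CPM per kb were alike within their spread, and FOXM1 at 20.1 ± 1.11 stood above MYBL2 at 15.4 ± 1.52. MYBL2 over FOXM1, per kb, came to 0.768 ± 0.035 in KD_OE, 1.81 ± 0.272 in KD_NC and 1.35 ± 0.034 in NC_NC, so the KD_NC ratio was the highest and the KD_OE ratio the lowest.

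Within the 7 E2F genes, E2F4 held the largest level per kb in every library. E2F4 took 63.1% ± 1.47 of the summed CPM per kb in KD_OE, 52.2% ± 2.30 in KD_NC and 51.7% ± 0.895 in NC_NC (SD, n = 3 each). E2F1 took 10.7% ± 1.01 in KD_OE, 19.8% ± 1.09 in KD_NC and 18.1% ± 0.655 in NC_NC. E2F2 took 0.831% ± 0.189, 2.97% ± 0.523 and 4.49% ± 0.401 in the same order of groups. After E2F4 the order in NC_NC was E2F1, E2F3, E2F7, E2F8, E2F2 and E2F5, with E2F8 at 6.56 ± 0.460 and E2F2 at 5.81 ± 0.627 CPM per kb within their spread. In KD_OE, E2F1 at 8.77 ± 1.16 and E2F3 at 8.73 ± 0.457 CPM per kb could not be ordered, and E2F2 stood last at 0.685 ± 0.193. The summed activators E2F1, E2F2 and E2F3 over the summed E2F4 and E2F5 came to 0.339 ± 0.00746 in KD_OE, 0.627 ± 0.034 in KD_NC and 0.646 ± 0.023 in NC_NC. The KD_OE libraries held 0.347, 0.332 and 0.339, all under the lowest library of KD_NC at 0.592. E2F7 over E2F8 came to 2.89 ± 0.483 in KD_OE, 1.51 ± 0.186 in KD_NC and 1.5 ± 0.141 in NC_NC.

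**Figure D3:**
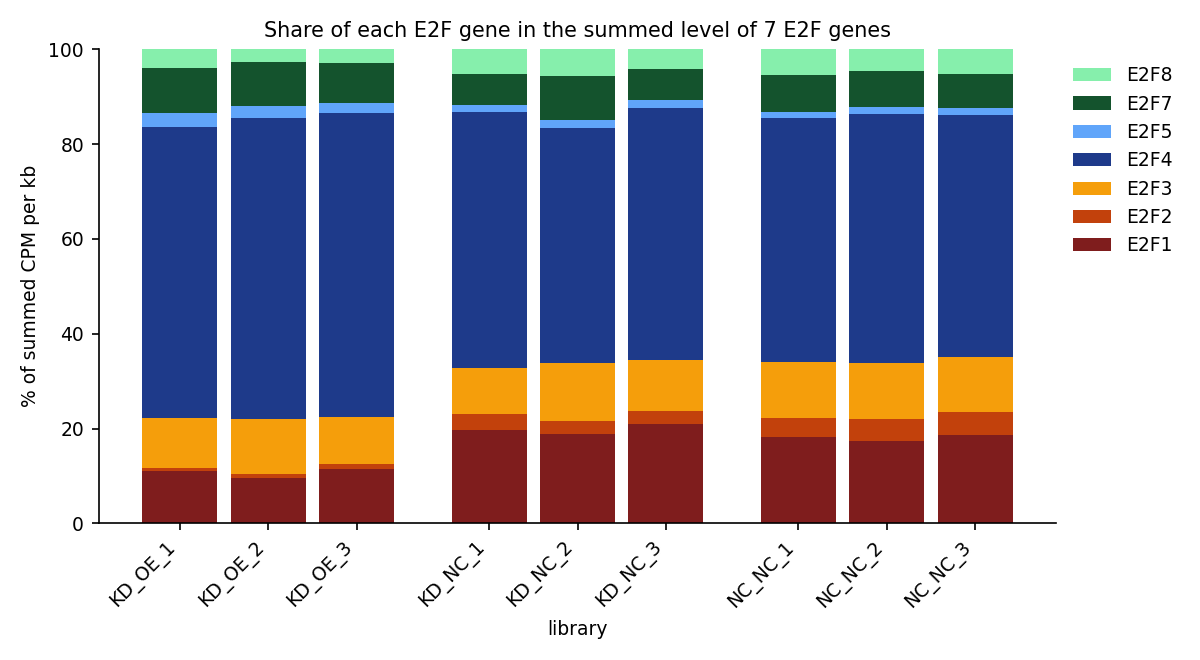
Share of each of 7 E2F genes in their summed level (vertical axis, % of summed CPM per kb) in each of the 9 libraries, stacked to 100%. E2F4 takes 61.4% to 64.2% in the KD_OE libraries and 49.6% to 53.9% in the other libraries, and the shares of E2F1 and E2F2 are smaller in KD_OE.

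The genes that these factors are known to drive were examined as 2 lists, which were also drawn up with earlier results of these data known. The G1/S list held 30 targets of E2F for DNA replication, and the G2/M list 30 targets of B-MYB, FOXM1 and MuvB for mitosis. Every G1/S gene, 30 of 30, fell in KD_OE against KD_NC, with a median log2 fold change of -1.40. In KD_NC against NC_NC 13 of 30 fell and 1 rose, with a median of -0.14. The G2/M genes showed a different division, with 26 of 30 lower in KD_NC against NC_NC (median -0.60) and 19 lower and 4 higher in KD_OE against KD_NC (median -0.52). The shares of all genes called lower were 25.6% in KD_OE against KD_NC and 18.5% in KD_NC against NC_NC, and those called higher 23.7% and 16.0%, in the same order.

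The contrast between the steps passed in the negative direction for 27 of 30 G1/S genes and in the positive direction for 0, with a median of -1.21, beside 17.9% of all genes in the negative and 15.7% in the positive direction. Of the G2/M genes it passed for 2 in the negative and 7 in the positive direction, with a median of 0.17. Over all genes the median was 0.00489. In KD_OE against NC_NC 29 of 30 G1/S genes fell (median -1.62), and of the G2/M genes 24 fell and 2 rose (median -1.15). Of all genes 28.4% were called lower and 27.9% higher in that comparison. The G1/S gene that did not pass there was CCNE2, a cyclin that activates CDK2, at log2 -0.31 ± 0.171 (adjusted p = 0.128, edgeR), named after its value was seen. It shares 1629 exon bases with INTS8 on the other strand.

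**Figure D4:**
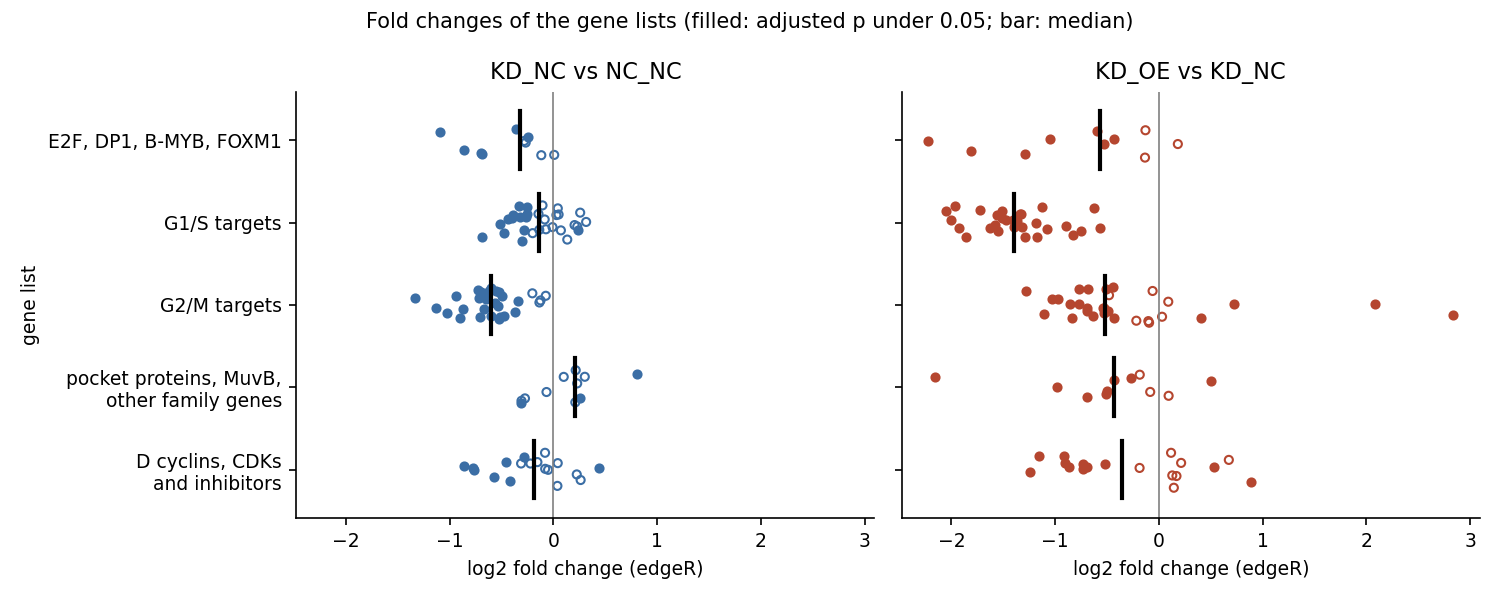
Log2 fold change (horizontal axes) of each tested gene of 5 lists (rows) in KD_NC against NC_NC (left) and KD_OE against KD_NC (right), with filled points for adjusted p under 0.05 and black bars for the list median. The G1/S genes lie around -0.14 on the left and -1.40 on the right, while the G2/M genes lie at -0.60 and -0.52, with CENPE and CENPF far to the right in KD_OE against KD_NC.

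Of the G1/S genes, ORC1, the largest subunit of the origin recognition complex, fell to 19.3 ± 0.915 CPM in KD_OE, against 73.5 ± 4.63 CPM in KD_NC (log2 -1.93 ± 0.097, edgeR adjusted p = 1.93e-11). It had 81.3 ± 3.24 CPM in NC_NC. MCM10, which helps to load replication proteins, fell to 11.6 ± 0.636 CPM in KD_OE, against 45.1 ± 1.42 CPM in KD_NC (log2 -1.96 ± 0.103, adjusted p = 3.17e-11). PCNA, the sliding clamp of DNA polymerases, fell to 56.7 ± 3.16 CPM in KD_OE, against 187 ± 21.5 CPM in KD_NC (log2 -1.72 ± 0.095, adjusted p = 5.97e-11). ORC1, MCM10 and PCNA had log2 fold changes of -0.14, -0.11 and -0.14 in KD_NC against NC_NC, none past the threshold. MCM4, a subunit of the replicative helicase, fell in KD_OE against NC_NC by 1.63 on the log2 scale (adjusted p = 1.06e-11). In KD_NC against NC_NC the lowest adjusted p among the falls belonged to TYMS, POLA1 and DNMT1. TYMS makes thymidylate and fell by 0.69, POLA1, the catalytic subunit of DNA polymerase alpha, fell by 0.52, and the maintenance methyltransferase DNMT1 fell by 0.47 on the log2 scale. TYMS shares exon bases with ENOSF1, which had 13590 counts against 3577. The 1 gene that rose was MCM6, a helicase subunit, at 179 ± 9.43 CPM in KD_NC, against 152 ± 3.46 CPM in NC_NC (log2 0.23 ± 0.081, adjusted p = 0.0306), and this call was lost under 8 of 16 alternatives, the omission of KD_OE replicate 2 and of each NC_NC library in turn among them.

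Of the G2/M genes, KIF20A, a kinesin of cytokinesis, fell to 72.0 ± 4.11 CPM in KD_NC, against 181 ± 7.43 CPM in NC_NC (log2 -1.33 ± 0.086, edgeR adjusted p = 1.66e-09). It fell again, to 50.4 ± 1.73 CPM, in KD_OE (log2 -0.51 ± 0.087 against KD_NC, adjusted p = 7.82e-05). PLK1, a kinase of mitotic entry, fell to 129 ± 10.2 CPM in KD_NC, against 283 ± 8.79 CPM in NC_NC (log2 -1.14 ± 0.086, adjusted p = 1.26e-08). CDC20, which activates the anaphase-promoting complex, stood at 113 ± 7.31 CPM in KD_OE, 221 ± 17.6 CPM in KD_NC and 450 ± 20.6 CPM in NC_NC, with log2 fold changes of -0.98 and -1.02 in the 2 steps. BIRC5, which encodes survivin, fell more in the step to KD_OE, at log2 -1.28 ± 0.092 (adjusted p = 2.08e-09), than in KD_NC against NC_NC, at -0.51 ± 0.090, and the contrast between the steps was -0.77 (adjusted p = 0.000778). CCNA2, or cyclin A2, fell in KD_OE against KD_NC by 1.03 on the log2 scale (adjusted p = 4.94e-08). KIF20A shares exon bases with BRD8 and CDC23 and CCNA2 with EXOSC9 on the other strand.

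CENPE, CENPF, HMMR and TOP2A were the 4 G2/M genes that rose in KD_OE against KD_NC, where 19 fell and 7 did not pass. CENPE, a kinesin of the kinetochore, stood at 79.5, 75.5 and 72.6 CPM in KD_OE, at 10.3, 11.5 and 9.90 CPM in KD_NC and at 18.5, 11.1 and 16.5 CPM in NC_NC. It rose 7.16-fold in KD_OE against KD_NC (log2 2.84 ± 0.145, edgeR adjusted p = 2.1e-11). CENPF, a large kinetochore protein, stood at 200.3, 198 and 183 CPM in KD_OE, at 50.0, 52.4 and 34.6 CPM in KD_NC and at 97.3, 66.7 and 92.1 CPM in NC_NC. It rose 4.24-fold in KD_OE against KD_NC (log2 2.09 ± 0.149, adjusted p = 7.88e-09). Every KD_OE library lay above every other library for both genes, and both were also above NC_NC (CENPE log2 2.30 ± 0.141, CENPF log2 1.18 ± 0.144). HMMR, a spindle protein, rose in KD_OE against KD_NC by log2 0.73 ± 0.118 (adjusted p = 4.62e-05), and TOP2A, a DNA topoisomerase, by log2 0.40 ± 0.110 (adjusted p = 0.00516). Both had fallen in KD_NC against NC_NC, and the call of TOP2A there was lost without KD_NC replicate 1 or 3 or NC_NC replicate 1 or 3. In KD_OE against NC_NC their log2 values were 0.03 and 0.06, neither past the threshold, and came to -0.31 and -0.27, past it, once GC content and length were corrected for.

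The partners of these factors were described by a list of 13 pocket proteins, MuvB subunits and further family members, of which 11 were tested. TFDP3 had no count, and LIN37 had too few counts for the test. In KD_OE against KD_NC 7 fell and 1 rose, with a median log2 fold change of -0.43, beside 25.6% of all genes called lower and 23.7% called higher. RBL2, a pocket protein of the DREAM complex, was the 1 that rose, at 146, 142 and 127 CPM in KD_OE, against 89.2, 115 and 90.1 CPM in KD_NC (log2 0.50 ± 0.102, edgeR adjusted p = 0.000489). It shares exon bases with AKTIP on the other strand. RBL1, the pocket protein that E2F itself induces, fell by log2 0.69 ± 0.123 (adjusted p = 0.000125). RB1 was not past the threshold, at log2 -0.18 ± 0.114. The MuvB subunits RBBP4, LIN9 and LIN54 fell, by 0.51, 0.50 and 0.43 on the log2 scale, and LIN52 did not pass. MYB fell by 2.15 on the log2 scale from a low level, at 0.345 ± 0.099 CPM in KD_OE against 1.56 ± 0.310 CPM in KD_NC.

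MYBL1, which encodes A-MYB, was higher in KD_NC than in both other groups. It stood at 6.54, 8.56 and 7.34 CPM in KD_OE, at 13.2, 16.4 and 14.8 CPM in KD_NC and at 10.0, 7.25 and 8.12 CPM in NC_NC. It fell in KD_OE against KD_NC (log2 -0.98 ± 0.155, edgeR adjusted p = 3.6e-05) and rose in KD_NC against NC_NC (log2 0.81 ± 0.154, adjusted p = 0.000485), whereas MYBL2 was lower in both steps. TFDP2, which encodes DP2, rose in KD_NC against NC_NC (log2 0.26 ± 0.090, adjusted p = 0.0312) and fell in KD_OE against KD_NC (log2 -0.27 ± 0.090, adjusted p = 0.0175). The rise was lost under 6 of 16 alternatives, among them the omission of KD_OE replicate 2 and of each NC_NC library, and the fall under 2, one of them the omission of KD_OE replicate 1. LIN52 fell in KD_NC against NC_NC (adjusted p = 0.0492), a call lost under 12 of 16 alternatives, the omission of each library other than KD_NC replicate 3 and NC_NC replicate 3 among them. E2F6, a repressor without a pocket protein, fell in KD_OE against NC_NC (log2 -0.36 ± 0.121, adjusted p = 0.0166), lost under 3 of 16 alternatives, among them the omission of KD_OE replicate 2 or NC_NC replicate 2. In KD_OE against NC_NC 5 of the 11 fell and 1, RBL2, rose, with a median of -0.22, beside 28.4% of all genes called lower and 27.9% called higher. In KD_NC against NC_NC 2 of the 11, MYBL1 and TFDP2, rose and 1, LIN52, fell, with a median of 0.21. Of all genes 16.0% were called higher and 18.5% lower there.

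The upstream regulators were a list of 18 cyclin, kinase and inhibitor genes, all tested. In KD_OE against KD_NC 9 fell and 2 rose (median log2 -0.35), beside 25.6% of all genes called lower and 23.7% called higher. In KD_NC against NC_NC 7 fell and 1 rose (median -0.19), beside 18.5% and 16.0%. In KD_OE against NC_NC 11 fell and 3 rose (median -0.64), beside 28.4% and 27.9%. The last counts include the rise of CDK6 and the fall of FZR1, lost under 7 and 8 of 16 alternatives, both of them without KD_OE replicate 1 or 2 or NC_NC replicate 2 or 3, and CDK6 also without KD_NC replicate 1. The 7 falls in KD_NC against NC_NC include CCND3, lost under 12 of 16 alternatives, among them the omission of replicate 2 or 3 of KD_NC or NC_NC and of KD_OE replicate 1 or 2. The D cyclins, which start the phosphorylation of the retinoblastoma protein, moved apart. CCND1 fell in both steps, to 620 ± 21.3 CPM in KD_OE, against 1028 ± 40.3 CPM in KD_NC (log2 -0.73 ± 0.081, edgeR adjusted p = 5.5e-07). KD_NC in turn lay under NC_NC, which had 1527 ± 30.1 CPM (log2 -0.57 ± 0.080, adjusted p = 2.51e-05). CCND1 shares exon bases with LTO1 on the other strand. CCND2 stood at 46.2 ± 1.71 CPM in KD_OE, 25.0 ± 1.44 CPM in KD_NC and 42.3 ± 2.16 CPM in NC_NC, so that it rose in KD_OE against KD_NC (log2 0.89 ± 0.098, adjusted p = 5.28e-07) and fell in KD_NC against NC_NC (log2 -0.76 ± 0.098, adjusted p = 9.53e-06). CCND3 fell in KD_OE against KD_NC (log2 -1.24 ± 0.110, adjusted p = 3.16e-08).

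CDK2, the kinase of E-type and A-type cyclins, fell to 38.5 ± 0.692 CPM in KD_OE, against 85.7 ± 6.10 CPM in KD_NC (log2 -1.15 ± 0.090, edgeR adjusted p = 6.48e-09). CDK4 also fell (log2 -0.87 ± 0.102, adjusted p = 1.24e-06), with exon bases shared with TSPAN31, and SKP2, which marks CDKN1B for breakdown, fell by 0.91 on the log2 scale. CDK6 was not past the threshold in KD_OE against KD_NC, at log2 0.12 ± 0.140. Among the inhibitors, CDKN1A (p21) rose in KD_NC, to 79.9 ± 9.85 CPM against 59.1 ± 4.22 CPM in NC_NC (log2 0.43 ± 0.105, adjusted p = 0.00353), and had 88.2 ± 7.57 CPM in KD_OE. CDKN2B rose in KD_OE, to 16.6 ± 0.823 CPM against 11.5 ± 1.05 CPM in KD_NC (log2 0.53 ± 0.125, adjusted p = 0.00165). CDKN2C, known as a target of E2F, fell in both steps, by 0.73 and 0.87 on the log2 scale, to 8.80 ± 0.599 CPM in KD_OE and 14.6 ± 0.730 CPM in KD_NC, against 26.6 ± 0.639 CPM in NC_NC. CDKN2D fell in KD_OE against KD_NC (log2 -0.91) and was not past the threshold in KD_NC against NC_NC (log2 -0.31). CDKN1B fell in KD_NC against NC_NC (log2 -0.46) and in KD_OE against NC_NC (log2 -0.33). Its value in KD_OE against KD_NC, log2 0.13, was not past the threshold.

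The start regions of the target lists carried different letters. Windows were found for 26 of 30 G1/S genes and 25 of 30 G2/M genes. Any E2F form was in 60% of 35 G1/S windows and 14.7% of 34 G2/M windows, beside 7.27% of all 35116 windows. The CHR, the element that MuvB binds, was searched as TTTGAA and TTCGAA on both strands and was in 5.71% of the G1/S windows and 61.8% of the G2/M windows, beside 16.4% of all. CCAAT was in 68.6%, 73.5% and 34.6%. Of the windows of the 10 factor genes, 1 held a CHR, that of E2F3 with the E2F forms. No test was made of these shares, and they say nothing of binding in these cells.

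GC content went with the fold changes of all genes. Across 16802 genes with a value, Spearman's rho between GC content and log2 fold change was -0.363 in KD_NC against NC_NC, -0.083 in KD_OE against KD_NC and -0.287 in KD_OE against NC_NC, as a description across genes that are not independent. The 10 genes spanned 38.3% GC for E2F5 to 62.5% for E2F1, around a median of 48.1% for all genes tested. After a correction for GC content and length in each library, KD_NC against NC_NC gave 0.12 for E2F1, -0.49 for MYBL2 and -0.94 for FOXM1 on the log2 scale. In KD_OE against KD_NC the correction gave -1.23 for E2F1, -2.25 for E2F2, -1.74 for MYBL2 and -0.95 for E2F8.

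**Figure D5:**
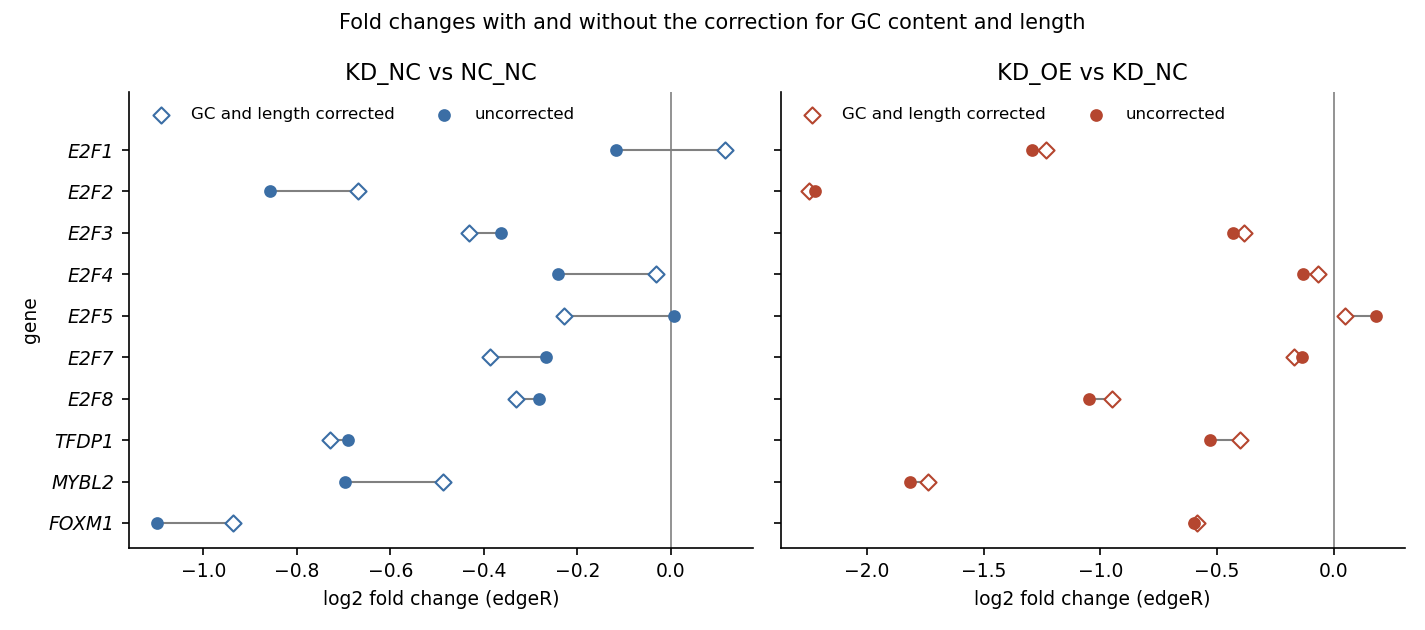
Log2 fold change (horizontal axes) of each gene without correction (filled circles) and after correction for GC content and length (open diamonds), in KD_NC against NC_NC (left) and KD_OE against KD_NC (right). E2F1 and E2F5 change sign and E2F4 moves to near 0 on the left, while no gene changes sign on the right.

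For each of the 10 genes the protein-coding genes with the most similar course over the 9 libraries were found by Pearson's r of log2 CPM among 10357 genes with a mean of at least 5 CPM. The 9 libraries fall into 3 groups, so r reflects mostly the group levels and is given without a p. MYBL2 was most like CDCA4 (r = 0.9996) and PKM (r = 0.9987). TFDP1 was most like 2 genes of the mitotic programme, CCNB2 (r = 0.998) and CDCA3 (r = 0.995). E2F1 was most like PRAME (r = 0.997) and AUNIP (r = 0.993), E2F2 like DLST (r = 0.998) and ANO1 (r = 0.997), and FOXM1 like ACLY (r = 0.999) and JADE2 (r = 0.997). E2F8 was most like LSG1 (r = 0.984), E2F3 like SLC25A13 (r = 0.989), E2F4 like SLC2A4RG (r = 0.991) and E2F7 like CELF1 (r = 0.966). The lowest of these values was that of E2F5, whose nearest gene was CCZ1B (r = 0.933). Similar r did not mean similar size: MYBL2 had a log2 fold change of -1.81 in KD_OE against KD_NC and CDCA4 -1.22, and E2F2 had -2.22 and DLST -0.39.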

How the data were processed

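RNA of 9 FaDu cultures was measured, per the labels' protocols, with a NEBNext Ultra RNA kit. The authors deposited whole-number read counts, not normalized, for 58735 genes, together with exon lengths. The submitters' processing notes name HISAT2 2.0.5, StringTie 1.3.3b, featureCounts 1.5.0-p3 and hg19, with no roles. The start and end of 58724 genes equal GENCODE v29, so positions are given on GRCh38. How reads in overlapping genes were counted is not given in the sources used here.

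The deposited counts were analysed with edgeR 4.0.16 in R 4.3.3. Genes were filtered with filterByExpr by group (minimum count 10), libraries were scaled by trimmed mean of M values (TMM), and a model with a mean for each group was fitted across the 9 libraries by robust quasi-likelihood (6 residual degrees of freedom). P-values were adjusted by Benjamini-Hochberg over 16812 genes, and genes were called at an adjusted p under 0.05. The SE of a log2 fold change is its size divided by the root of its F statistic. CPM use TMM-scaled library sizes, and ± beside a level is the SD.

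The 10 genes and the lists were chosen with earlier results of these data known, and so was the naming rule: all 10 genes, the label check, list genes behind a count, up to 3 rises and 3 falls with the lowest adjusted p in each target list and comparison, target genes called against most of their list, and the genes with the highest r to each of the 10. Alternatives were upper-quartile factors, DESeq2 1.42.0, no filter, the compared groups alone, a replicate block, a correction for GC content and length (splines with 5 degrees of freedom, in each library), and omission of each library. The fit and the comparisons between 2 groups were checked on simulated counts with 200 changed genes. The contrast between the steps was not part of that check.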

Additional observations from a re-analysis of the deposited data

How the results depend on the processing

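Of the 10 genes' log2 fold changes, 345 values with a library left out moved by less than the spread between replicates and 15 moved more, and under the other alternatives 230 and 40 did, with no called value changing sign. Counts of called genes over the whole table, with a library left out in turn, ran from 7071 to 8478 in KD_OE against KD_NC (8278 with all libraries), 4288 to 6427 in KD_NC against NC_NC (5812), 8317 to 9950 in KD_OE against NC_NC (9468) and 4593 to 5961 for the contrast of the steps (5652). The count of the 10 genes ran over 7 to 8, 5 to 7 and 8 to 9 in the first 3 of these across alternatives. The 14 called G1/S genes in KD_NC against NC_NC became 9 with no filter on low counts, and 8 to 14 with a library left out. The 3 called partner genes of that comparison became 1 with no filter, 1 with the replicate block, 5 with the GC and length correction and 5 with both, and 1 to 4 with a library left out. The 6 called partner genes in KD_OE against NC_NC became 10 with the correction and 10 with both (5 to 6 with a library left out). For the contrast of the steps, the 9 G2/M genes became 17 with the correction and 15 with both (7 to 13 with a library left out), and the 5 partner genes became 8 with the correction (5 to 7). Changes of sign with the correction, alone and with the block, are listed for named genes other than the 10 that were called with or without it. The sign turned for FZR1 in KD_NC against NC_NC (0.20) and for DYRK1A in KD_OE against KD_NC (-0.27). In KD_OE against NC_NC it turned for DYRK1A (-0.44), RB1 (-0.38), CDK6 (-0.10), HMMR (-0.31) and TOP2A (-0.27). The cause was not tested. Values not called also turned, those of E2F1 and E2F5 in KD_NC against NC_NC among them.

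Replicate numbers did not pair the libraries: deviations of same-numbered libraries correlated at -0.11 to 0.06, and 0 of 9 pairs were over 0.1. The replicate block gave 7912, 5376, 9149 and 5125 called genes in the same order of comparisons. Upper-quartile factors moved the median of all genes in KD_OE against NC_NC to 0.13, against 0.02 with TMM. MYB had 195 counts over the 9 libraries, which limits the precision of its fold change.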
